A study of Mus musculus with 16 samples.

Results

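The genes described here are the plasminogen activators Plau and Plat, the urokinase receptor gene Plaur, and the serpin inhibitor genes Serpine2 and Serpinb2. They were taken by symbol and are 5 of the 20325 gene names in 12 of the RNA libraries. All 5 were also found by Ensembl ID in the remaining RNA library, the MEF given Oct4. The series asked how the AP-1 subunit c-Jun drives mouse embryonic stem cells (ESC) to differentiate and blocks reprogramming, and why c-JunDN or Jdp2 can stand in for Oct4.

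RNA was sequenced in 13 libraries, with 1 library per group. The ESC libraries, from OG2 cells at passage 5, are a c-Jun TetOn line given doxycycline (dox) for 36 h, the same line at 36 h without dox, and wild-type (WT) ESC. The fibroblast libraries, from OG2 mouse embryonic fibroblasts (MEF) at passage 2, are MEF overexpressing c-Jun, c-JunDN, Jdp2 or Oct4, MEF overexpressing DR, and WT MEF. The reprogramming libraries are MEF at passage 2 that received Klf4, Sox2 and c-Myc (KSM) together with Oct4, c-JunDN, Jdp2 or DR, taken on day 3. DR is not spelled out in the labels and is the matched control in MEF and KSM cells. c-JunDN is a dominant-negative form of c-Jun, and Jdp2 encodes a repressor that pairs with Jun proteins. All cells are labelled with a mixed 129SVJ, C57B6 and CBA background, and neither ESC control is labelled as given dox. Whether the inducible line is 1 clone, and how many embryos gave the MEF, is not given in the sources used here.

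Each group is a single library, so differences could not be checked against replicates and no p-value is given. Intervals are exact 95% binomial intervals of the ratio of 2 counts and cover counting error only. The depth was 21415021 expected counts in WT MEF, 12173100 in WT ESC and between 1896522 and 3440917 in the other 11 libraries. Levels are scaled counts (CPM, after TMM scaling). In those 11 libraries 3 counts correspond to between 0.91 and 1.62 CPM. Jun stood at 2180 CPM with dox against 23.3 CPM without dox in ESC, and at 12907 CPM with c-Jun against 94.7 CPM with DR in MEF. In MEF, Jdp2 stood at 7753 CPM in the Jdp2 library against 82.3 CPM with DR, and Pou5f1, the gene of Oct4, at 10403 CPM in the Oct4 library against 2.59 CPM with DR. In KSM cells, Jun stood at 378 CPM with c-JunDN, Jdp2 at 403 CPM with Jdp2 and Pou5f1 at 1864 CPM with Oct4, against 73.1, 3.22 and 4.42 CPM with DR. The counts do not separate introduced from endogenous transcripts. The summed level of 6 fibroblast markers was 11214 to 51132 CPM over the MEF libraries and 737 to 1755 CPM over the KSM libraries, and that of 6 ESC markers was 1174 to 6524 CPM over the ESC libraries. In bulk RNA, fewer cells of a type and less RNA per cell cannot be told apart.

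Plasminogen activators are serine proteases that cleave plasminogen to plasmin, a protease that dissolves fibrin and helps to break down and remodel the extracellular matrix. Urokinase, the product of Plau, acts largely at the cell surface while bound to its receptor, the product of Plaur. Tissue-type activator, the product of Plat, is best known for acting on fibrin clots. Serpins trap these proteases in covalent complexes, which cells take up through endocytic receptors. Urokinase and its receptor are known for their part in cell migration, and AP-1 is a known regulator of several of these genes.

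A gene was taken as measured when either library of the pair reached 5 CPM. It was called higher or lower at a change of 2-fold or more in CPM plus 1. In ESC, Plau, Plat, Plaur and Serpine2 rose with c-Jun, where 41% of 11255 measured genes changed (21.3% rose and 19.7% fell). In MEF with c-Jun, Plat and Serpinb2 rose and no member fell, where 17.9% of 11284 genes changed (8.21% rose and 9.7% fell). With c-JunDN in MEF, Plau and Plaur fell, where 6.12% of 11175 genes changed (3.26% rose and 2.86% fell). With Jdp2 in MEF, Plat and Plaur fell, where 12.4% of 11232 changed (5.95% rose and 6.42% fell). With Oct4 in MEF, Plat fell, where 21.9% of 11186 changed (11.6% rose and 10.3% fell).

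In KSM cells, Plau and Serpine2 fell with Oct4, where 11.5% of 10834 genes changed (4.74% rose and 6.8% fell). Plaur fell with c-JunDN, where 3.44% of 10799 changed (1.69% rose and 1.75% fell). No member was called with Jdp2, where 4.48% of 10881 changed (3.13% rose and 1.35% fell). Serpinb2 was measured only in MEF with c-Jun, and the other 4 genes were measured in all 8 comparisons with a matched control. In ESC, Plau and Plat had 0 counts without dox and passed the filter only through the induced library. The 4 MEF comparisons share the DR library and the 3 KSM comparisons share the KSM library with DR, so they are not independent.

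WT libraries served as second controls. Against WT ESC, Plau and Plaur were higher in ESC with dox, where 37.7% of 11484 genes changed (14.6% higher and 23.1% lower). Against WT MEF, 4 members were called with c-Jun, where 24.9% of 11119 genes changed (11.4% higher and 13.5% lower), and 2 with c-JunDN, where 21.9% of 11170 changed (10.6% higher and 11.3% lower). With Jdp2 4 members were called, where 26.7% of 11195 changed (12.2% higher and 14.5% lower), and with Oct4 3 were called, where 29.3% of 11002 changed (14.6% higher and 14.7% lower). Plat and Serpinb2 were higher and Plau and Plaur lower with c-Jun, and Plau and Plaur were lower with c-JunDN. Serpine2 was higher and Plau, Plat and Plaur lower with Jdp2. Serpine2 was higher and Plau and Plat lower with Oct4.

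**Figure D1:**
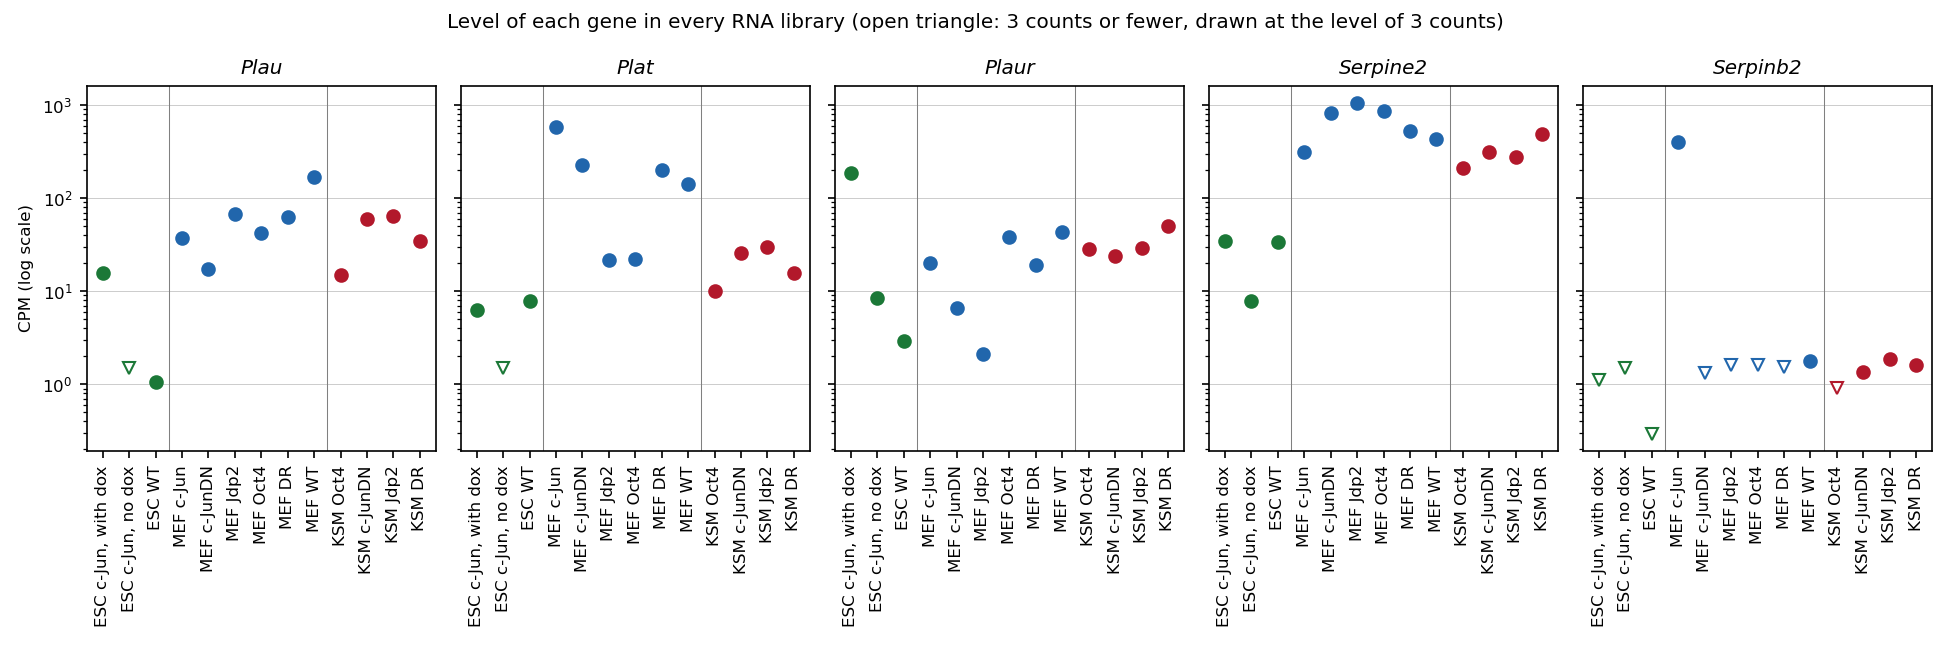
Level of each of the 5 genes in CPM (log axis) in every RNA library, with ESC in green, MEF in blue and KSM cells in red. Each point is 1 library, and open triangles are libraries with 3 counts or fewer, drawn at the level of 3 counts. Serpinb2 stands at 404 CPM in MEF with c-Jun and under 2 CPM in the other 12 libraries.

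Plau, the gene of urokinase-type plasminogen activator, had 15.8 CPM in ESC with dox, against 0 CPM without dox and 1.07 CPM in WT ESC. The induced library was above both controls. The change was at least 10.6-fold against a floor of 3 counts in the uninduced library. Against WT ESC it was 14.7-fold (7.48 to 31.7), from 43 and 11 counts.

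In MEF, Plau stood at 37.7 CPM with c-Jun, 17.4 CPM with c-JunDN, 68.1 CPM with Jdp2, 42.7 CPM with Oct4, 62.1 CPM with DR and 169 CPM in WT MEF. Each of the 5 manipulated cultures was below WT MEF, DR included, in which Plau was 2.73-fold lower (2.27 to 3.31) than in WT MEF. Of 11096 genes measured between DR and WT MEF, 20.3% changed (9.82% higher and 10.5% lower). Against DR, Plau fell 3.57-fold (2.48 to 5.24) with c-JunDN. The ratio to DR was 0.608 with c-Jun (0.446 to 0.823), 0.688 with Oct4 (0.512 to 0.92) and 1.1 with Jdp2 (0.848 to 1.42), and none of these passed 2-fold.

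In KSM cells on day 3, Plau had 14.9 CPM with Oct4, 59.6 CPM with c-JunDN, 65.1 CPM with Jdp2 and 35 CPM with DR. The Oct4 library was the lowest and the c-JunDN and Jdp2 libraries were the highest. Plau fell 2.35-fold with Oct4 (1.64 to 3.41). Its ratios of 1.7 with c-JunDN (1.31 to 2.23) and 1.86 with Jdp2 (1.43 to 2.43) stayed under 2-fold, with intervals that exclude no change.

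Plat, the gene of tissue-type plasminogen activator, had 6.23 CPM in ESC with dox, against 0 CPM without dox and 7.88 CPM in WT ESC. The uninduced line stood apart from the other two, and the induced level was at least 4.19-fold above it. Against WT ESC, the ratio was 0.791 (0.44 to 1.35), so the rise was seen against the uninduced line and not against WT ESC. The summed fibroblast markers stood at 539 CPM with dox, 23.8 CPM without dox and 965 CPM in WT ESC. In that order, Col1a1 stood at 509, 6.94 and 481 CPM and Thy1 at 11, 2.97 and 9.63 CPM. Col1a2 stood at 11.7, 8.92 and 389 CPM, Pdgfrb at 6.97, 4.46 and 17.5 CPM and Postn at 0.733, 0 and 64.2 CPM. Lum stood at 0, 0.495 and 3.5 CPM. The part of these markers in this pattern of Plat was not tested.

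The level of Plat in MEF was 584 CPM with c-Jun, 227 CPM with c-JunDN, 21.4 CPM with Jdp2, 22.4 CPM with Oct4, 203 CPM with DR and 141 CPM in WT MEF. The c-Jun library was the highest of the 13 libraries, and the Jdp2 and Oct4 libraries were far below both controls. Plat rose 2.87-fold with c-Jun (2.56 to 3.23) and fell 9.48-fold with Jdp2 (6.84 to 13.5) and 9.07-fold with Oct4 (6.59 to 12.8) against DR. Against WT MEF the rise was 4.15-fold (3.86 to 4.47) and the falls 6.56-fold (4.8 to 9.2) with Jdp2 and 6.27-fold (4.62 to 8.73) with Oct4. With c-JunDN the ratio to DR was 1.11 (0.976 to 1.27). The summed fibroblast markers stood at 11214 CPM with c-Jun, 23333 CPM with Jdp2 and 13949 CPM with Oct4, against 25868 CPM with DR. In the same order, Postn was above DR (1446 CPM), at 1607, 7486 and 5558 CPM. Pdgfrb with Jdp2 (536 CPM, against 399 CPM) and Thy1 with Oct4 (1091 CPM, against 419 CPM) were also above DR. All other marker levels in these libraries were below DR, with Col1a1 at 4589, 6302 and 4031 CPM, against 12145 CPM. The part of these markers in the changes of Plat was not tested. Summed endothelial markers were at 63.1 CPM with Oct4 and 5.36 CPM with Jdp2, against 5.69 CPM with DR. Pecam1 and Cdh5 of that list had 0 counts both with Oct4 and with DR. The sum with Oct4 came from Vwf (31 CPM), Kdr (21.4 CPM) and Tek (10.7 CPM). The part of the endothelial markers in the falls of Plat was not tested. The Oct4 library is listed by Ensembl ID and the others by gene name with RefSeq accessions, and the part of this in the ratios with Oct4 was not tested.

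KSM cells held little Plat, at 10 CPM with Oct4, 25.6 CPM with c-JunDN, 30.1 CPM with Jdp2 and 15.7 CPM with DR. Between KSM cells with DR and MEF with DR, Plat was 13-fold lower (9.32 to 18.5), where 38.6% of 11476 genes changed (18.7% higher and 19.9% lower). The summed fibroblast markers stood at 840 CPM and 25868 CPM in the same 2 libraries, and their part in this difference was not tested. Within the KSM cells no ratio to DR passed 2-fold. They were 0.639 with Oct4 (0.389 to 1.04), 1.63 with c-JunDN (1.1 to 2.47) and 1.92 with Jdp2 (1.3 to 2.89).

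**Figure D2:**
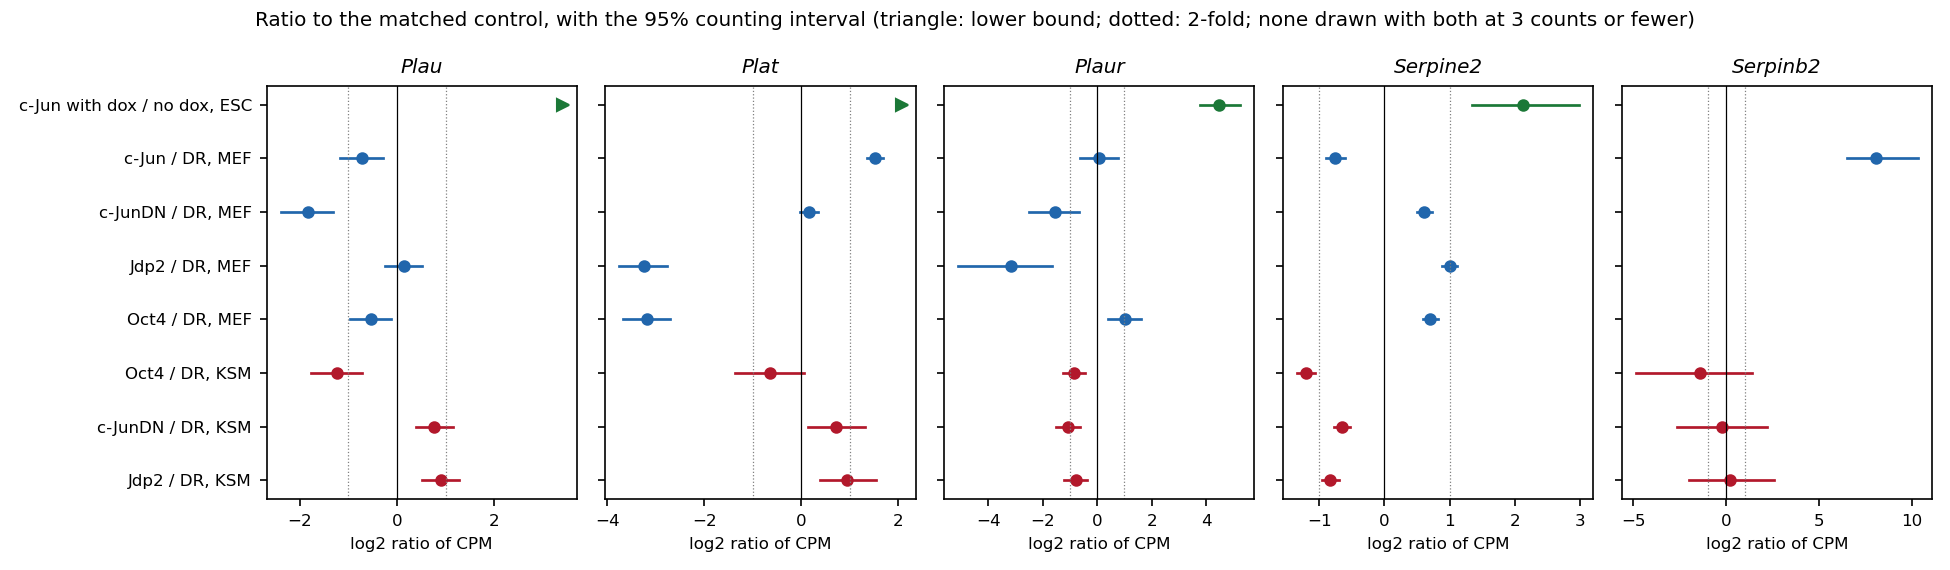
Ratio of each gene's CPM to its matched control on a log2 axis, with 1 row per comparison. Points are ratios, bars are 95% counting intervals, triangles are lower bounds against 3 counts, and dotted lines mark 2-fold. With Jdp2, Plat lies to the left of the 2-fold line in MEF and to the right of no change in KSM cells.

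Plaur, the gene of the urokinase receptor, had 186 CPM in ESC with dox, against 8.42 CPM without dox and 2.92 CPM in WT ESC. The induced ESC held the highest level of Plaur among the 13 libraries, above every MEF library. The rise was 22.1-fold (13.7 to 38.3) over the uninduced line and 63.9-fold (44.2 to 95.6) over WT ESC. Plaur also differed between the controls, being 2.89-fold higher (1.49 to 5.41) in the uninduced line than in WT ESC, where 24.7% of 11053 genes changed (6.35% higher and 18.3% lower). The summed level of 8 macrophage markers was 124 CPM with dox and 12.4 CPM without dox. Of these, Ptprc, C1qa, C1qb, C1qc and Lyz2 were at 0 in both libraries, and the sum with dox came from Csf1r (80.7 CPM), Cd68 (39.2 CPM) and Cd14 (4.03 CPM). Summed trophoblast markers were at 520 CPM with dox and 7.93 CPM without dox (4 markers), and keratinocyte markers at 573 CPM and 22.3 CPM (5 markers). Most of the keratinocyte sum with dox was Sfn (463 CPM) and Krt6a (103 CPM). Krt5 stood at 4.77 CPM, Krt14 at 1.83 CPM and Trp63 at 0 CPM with dox. The part of these markers in the rises of Plau, Plat, Plaur and Serpine2, and of the other genes named in ESC, was not tested.

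In MEF, Plaur had 20 CPM with c-Jun, 6.53 CPM with c-JunDN, 2.14 CPM with Jdp2, 38.4 CPM with Oct4, 19.1 CPM with DR and 42.8 CPM in WT MEF. The c-Jun and DR libraries were close to each other, the c-JunDN and Jdp2 libraries were below them, and each of these was below WT MEF. With c-Jun, Plaur was 2.14-fold lower (1.54 to 3.07) than in WT MEF. The ratio of c-Jun to DR was 1.04 (0.643 to 1.69). Plaur fell 2.93-fold with c-JunDN (1.57 to 5.75) and 8.93-fold with Jdp2 (3.21 to 34.5). The fall with Jdp2 rests on 4 counts, against 37 with DR. With Oct4 the ratio of CPM was 2.01 (1.33 to 3.07) and the log2 change of CPM plus 1 was 0.97, just under the threshold. Against WT MEF the ratio with Oct4 was 0.899 (0.694 to 1.15), since DR was 2.23-fold lower (1.6 to 3.2) than WT MEF.

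In KSM cells, Plaur had 28.2 CPM with Oct4, 24.2 CPM with c-JunDN, 29.4 CPM with Jdp2 and 50.6 CPM with DR. All 3 libraries with an added factor were below DR. The 5 keratinocyte markers summed to 20 CPM with Oct4, 46.2 CPM with c-JunDN and 95.2 CPM with Jdp2, against 138 CPM with DR. The DR sum was mostly Sfn (78.8 CPM), Krt6a (35.4 CPM) and Krt14 (23.7 CPM). Sfn and Krt6a were lower with every added factor. Krt14 was lower with Oct4 (3.94 CPM) and c-JunDN (6.4 CPM) and close to DR with Jdp2 (22.3 CPM). Krt5 stood at 11.2 CPM with Jdp2, against 0.402 CPM with DR, and Trp63 at 0 CPM in both. The part of these markers in the Plaur levels was not tested. The fall with c-JunDN was 2.09-fold (1.55 to 2.83), just past the threshold, while the ratios with Jdp2 (0.58, 0.432 to 0.774) and Oct4 (0.557, 0.421 to 0.734) were just inside it. The intervals of these 3 ratios overlap.

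Of the members' promoter windows, those of Plaur and Serpinb2 are shown because they hold a match to the AP-1 motif TGANTCA, which is in capitals. The windows run from 250 bases before to 50 bases after a RefSeq start (build GRCm38.p6). They are at chr7:24462233-24462532 on the plus strand for Plaur and chr1:107511173-107511472 on the plus strand for Serpinb2.
Plaur: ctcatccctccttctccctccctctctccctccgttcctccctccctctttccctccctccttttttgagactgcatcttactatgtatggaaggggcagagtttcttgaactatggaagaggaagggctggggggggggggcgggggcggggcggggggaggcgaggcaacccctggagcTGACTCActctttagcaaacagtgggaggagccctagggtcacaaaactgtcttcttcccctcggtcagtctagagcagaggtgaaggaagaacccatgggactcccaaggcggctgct
Serpinb2: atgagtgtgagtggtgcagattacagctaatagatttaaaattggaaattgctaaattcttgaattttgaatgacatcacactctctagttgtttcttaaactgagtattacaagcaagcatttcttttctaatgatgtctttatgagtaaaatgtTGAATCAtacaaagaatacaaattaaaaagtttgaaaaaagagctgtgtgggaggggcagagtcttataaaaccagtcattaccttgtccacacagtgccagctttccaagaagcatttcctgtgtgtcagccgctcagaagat

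The Plaur window held TGACTCA starting 69 bases before the start, and the Serpinb2 window held TGAATCA starting 94 bases before it. TGANTCA reads the same on both strands and was present in 7.81% of 32817 promoter windows of this length. The related motif TGACGTCA, which also reads the same on both strands and does not overlap TGANTCA, was in 1.79% of them and in none of the members' windows. Windows were found for 3 of the 5 genes. The third, that of Serpine2, which rose with c-Jun in ESC over the uninduced line and not over WT ESC, held neither set of letters. It lies on the minus strand at chr1:79858616-79858915. Serpinb2 has a second window, 87 bases downstream, that contains the same match. Plau and Plat have no entry. A match is a description of the letters in this window and not of binding.

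Serpine2, the gene of protease nexin-1, which inhibits thrombin and both activators, was the most abundant of the 5 transcripts per length in WT ESC, in every MEF library except that with c-Jun, and in every KSM library. In ESC it had 34.5 CPM with dox, against 7.93 CPM without dox and 34.2 CPM in WT ESC. As with Plat, the uninduced line was the low one. Of the fibroblast markers given there, Col1a1 and Thy1 had this pattern, and the others were highest in WT ESC. The part of these markers in the Serpine2 levels was not tested. Serpine2 rose 4.35-fold (2.54 to 7.92) over the uninduced line, while its ratio to WT ESC was 1.01 (0.793 to 1.27).

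In MEF, Serpine2 had 317 CPM with c-Jun, 813 CPM with c-JunDN, 1065 CPM with Jdp2, 868 CPM with Oct4, 533 CPM with DR and 430 CPM in WT MEF. The c-Jun library was below both controls, and the c-JunDN, Jdp2 and Oct4 libraries were above both. None passed 2-fold against DR. The ratios were 0.594 with c-Jun (0.536 to 0.658), 1.53 with c-JunDN (1.41 to 1.65) and 1.63 with Oct4 (1.51 to 1.76). With Jdp2 the ratio of CPM was 2.00 (1.85 to 2.16), and adding 1 CPM to both levels left it just under the threshold. Against WT MEF, Jdp2 was 2.48-fold higher (2.36 to 2.61) and Oct4 2.02-fold higher (1.91 to 2.13).

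In KSM cells, Serpine2 had 211 CPM with Oct4, 310 CPM with c-JunDN, 274 CPM with Jdp2 and 487 CPM with DR. The DR library was the highest of the 4, and its level was close to that of MEF with DR (ratio 0.913, 0.84 to 0.993). Serpine2 fell 2.31-fold with Oct4 (2.1 to 2.53). The ratios with c-JunDN (0.637, 0.584 to 0.695) and Jdp2 (0.563, 0.513 to 0.617) stayed within 2-fold.

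Serpinb2 encodes plasminogen activator inhibitor type 2, a clade B serpin that is found largely inside cells and is induced in activated macrophages. It had 404 CPM in MEF with c-Jun, from 750 counts. The other MEF libraries held 0.435 CPM with c-JunDN, 0 CPM with Jdp2, 0 CPM with Oct4, 1.55 CPM with DR and 1.76 CPM in WT MEF. Only the c-Jun library was above 2 CPM. Against DR, with 3 counts, the ratio was 261 (88.8 to 1266). Against WT MEF, in which Serpinb2 had 27 counts, the rise was 230-fold (157 to 351).

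Beside the Serpinb2 rise, summed macrophage markers were at 140 CPM in MEF with c-Jun and 93.2 CPM with DR. Within that list Ptprc had 0 counts with c-Jun and 5 with DR, C1qa had 2 and 8, C1qb 1 and 4, and C1qc 1 and 5, and Lyz2 was at 24.8 CPM with c-Jun and 65.2 CPM with DR. Csf1r stood at 78.7 CPM with c-Jun and 4.66 CPM with DR, Cd14 at 29.1 CPM with c-Jun and 6.73 CPM with DR, and Cd68 at 5.39 CPM with c-Jun and 5.17 CPM with DR. The part of these markers in the Serpinb2 rise was not tested.

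In ESC, Serpinb2 had 1 count with dox, 0 counts without dox and 0 counts in WT ESC. KSM libraries held 2 counts with Oct4, 4 with c-JunDN, 5 with Jdp2 and 4 with DR. At these depths no difference was detectable in ESC or KSM cells. A ratio of 0.377 with Oct4 in KSM cells had an interval of 0.0341 to 2.63.

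The opposing forms of c-Jun were also set against each other in MEF, a comparison that does not use DR. Per CPM, Plau was 2.17-fold higher (1.45 to 3.28), Plaur 3.06-fold (1.64 to 5.99) and Plat 2.58-fold (2.32 to 2.86) with c-Jun than with c-JunDN. Serpinb2 was 929-fold higher (166 to 36755), resting on 1 count with c-JunDN, and Serpine2 was 2.57-fold lower (2.34 to 2.82). All 5 genes passed the threshold, and 18.4% of 11334 genes changed (8.28% higher and 10.1% lower).

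Between cell types, WT MEF held more of each gene than WT ESC. Plau was at 169 CPM in WT MEF against 1.07 CPM in WT ESC, a 158-fold difference (88.4 to 318). Plat was 17.9-fold (14.3 to 22.6), Plaur 14.7-fold (10.2 to 21.9) and Serpine2 12.6-fold (11.3 to 14) higher. Serpinb2 was at 1.76 CPM in WT MEF and 0 CPM in WT ESC. Of 11821 genes, 54.1% changed between these libraries (23.9% higher and 30.2% lower in WT MEF). Plaur was 2.64-fold higher (1.82 to 3.93) in KSM cells with DR than in MEF with DR, opposite to Plat in the same pair.

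Levels of different genes were compared per length, as the authors' length-scaled transcript abundance (TPM). The 5 genes summed to 347 TPM in ESC with dox, 16.4 TPM without dox and 40.3 TPM in WT ESC. Plaur made up 83.6% of the sum with dox, 61% without dox and 9.48% in WT ESC. In MEF the sum was 1271 TPM with c-Jun, 1045 TPM with c-JunDN, 1215 TPM with Jdp2, 986 TPM with Oct4, 788 TPM with DR and 738 TPM in WT MEF.

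The make-up of these sums differed. With c-Jun in MEF, Plat was at 473 TPM, Serpinb2 at 420 TPM and Serpine2 at 316 TPM, or 37.2%, 33% and 24.9% of the sum. With Jdp2, Serpine2 alone was at 1129 TPM, or 93% of the sum, while Serpine2 was 68.1% with DR and 56.7% in WT MEF. Plau, 19.6% of the sum in WT MEF, was between 1.49% and 6.96% in the other MEF libraries. In KSM cells the sum was 244 TPM with Oct4, 404 TPM with c-JunDN, 391 TPM with Jdp2 and 553 TPM with DR. Plau made up 4.75% of it with Oct4, 12.4% with c-JunDN, 14.2% with Jdp2 and 5.06% with DR.

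**Figure D3:**
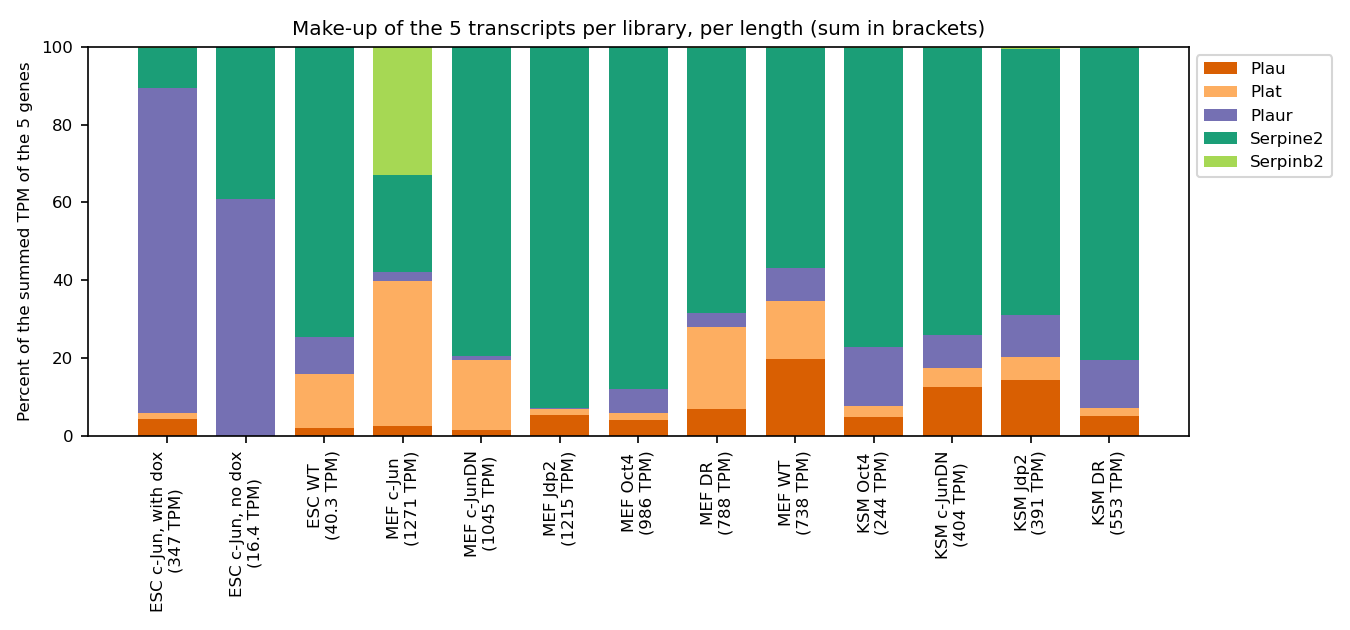
Share of each gene in the summed TPM of the 5 genes (per cent), with 1 bar per library and the sum in brackets. Serpine2 holds 93% in MEF with Jdp2, Plaur holds 83.6% in ESC with dox, and Serpinb2 is visible in MEF with c-Jun, at 33%.

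Other genes of the plasmin system were taken from a list of 28, of which 27 were found. In ESC with dox, 11 of 19 measured genes were called higher and 3 lower, beside 21.3% and 19.7% of all measured genes. The median log2 change was 1.64, beside -0.09 over all measured genes. Anxa2, which binds plasminogen at the cell surface, rose 37.5-fold (28.5 to 50.6) to 948 CPM, against 25.3 CPM without dox. St14, the gene of matriptase, a protease that can activate urokinase, rose 14-fold (10.6 to 19). The integrin genes Itga5 and Itgav rose 6.83-fold (5.77 to 8.13) and 6.26-fold (5.13 to 7.72). The falls were Serpini1, the neuroserpin gene (log2 -2.01), Eno1, the gene of an enolase that also binds plasminogen (-1.58), and F2rl1, a protease-activated receptor gene (-1.10). With WT ESC as control, 9 of 19 measured genes were higher and 4 lower, beside 14.6% and 23.1% of all measured genes. The median was 0.99, beside -0.27. WT ESC held 30.4 CPM of Anxa2, 176 CPM of St14, 133 CPM of Itga5 and 168 CPM of Itgav. The levels with dox were 948, 355, 511 and 335 CPM. Of the genes that fell, WT ESC held 9.53 CPM of Serpini1, 1298 CPM of Eno1 and 52.7 CPM of F2rl1. With dox these stood at 2.2, 927 and 26 CPM, against 11.9, 2779 and 57 CPM without dox. The size of the Eno1 fall therefore depends on the control.

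In MEF with c-Jun, 3 of 20 measured genes of the list rose and 6 fell, beside 8.21% and 9.7% of all measured genes. The median was -0.36, beside 0.02 over all measured genes. Itga5 rose 5.51-fold (5.04 to 6.03). Serping1, the gene of C1 inhibitor, fell 38.1-fold (17.2 to 105) to 3.24 CPM, against 123 CPM with DR. WT MEF held 24.1 CPM of Serping1, so the size of this fall depends on the control. The sorting receptor gene Sorl1 fell 5.04-fold (1.7 to 20.2) and Mrc2, a collagen receptor gene whose product associates with the urokinase receptor, 3.29-fold (2.92 to 3.72).

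With c-JunDN in MEF, 1 gene of 20 rose and 3 fell, beside 3.26% and 2.86% of all genes (median -0.06, beside -0.01). St14 rose 6.39-fold (2.51 to 20.8), and Eno1 (2.36-fold), Sorl1 (2.27-fold) and F3, the tissue factor gene (2.07-fold), fell. With Jdp2, 1 of 20 rose and 4 fell, beside 5.95% and 6.42% of all genes (median -0.39, beside 0.00). F3 fell 13.8-fold (10 to 19.5) and Eno1 3.3-fold (2.96 to 3.68), and St14 rose 5.18-fold (1.95 to 17.3). Serpini1 was 3.86-fold lower (1.04 to 21.3), resting on 3 counts with Jdp2.

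With Oct4 in MEF, 4 of 21 genes rose and 5 fell, beside 11.6% and 10.3% of all genes (median 0.23, beside 0.01). Serpini1, whose serpin product inhibits tissue-type activator, rose 41.2-fold (23.4 to 80.3) to 256 CPM, against 6.21 CPM with DR. F3 fell 13.9-fold (10.1 to 19.6), Serping1 12.1-fold (7.6 to 20.5) and Vldlr, an endocytic receptor gene for protease and serpin complexes, 6.95-fold (4.48 to 11.3). Serping1 stood at 10.1 CPM with Oct4, 123 CPM with DR and 24.1 CPM in WT MEF. F3 fell over 10-fold in the libraries with Jdp2 and Oct4, where Plat also fell. It fell 2.92-fold (2.47 to 3.46) with c-Jun, where Plat rose 2.87-fold. With c-JunDN it fell 2.07-fold, where the ratio of Plat to DR was 1.11.

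In KSM cells with Oct4, 1 of 18 measured genes rose and 7 fell, beside 4.74% and 6.8% of all measured genes. The median was -0.57, beside 0.07. F2rl1 rose 8.22-fold (5.53 to 12.7), while F3 fell 5.3-fold (2.11 to 15.9), Vldlr 2.65-fold (1.53 to 4.71) and Thbd, the thrombomodulin gene, 2.5-fold (1.7 to 3.7). With c-JunDN and with Jdp2 none of 18 measured genes was called in KSM cells, beside 3.44% and 4.48% of all measured genes. The medians were -0.03 and 0.02, beside 0.02 and -0.02. The ratio of Anxa2 to DR was 0.528 with c-JunDN (0.504 to 0.553) and 0.515 with Jdp2 (0.491 to 0.541). That of S100a10, the partner of annexin A2, was 0.529 with c-JunDN (0.47 to 0.595), and that of Lrp1, an uptake receptor gene, was 1.57 with Jdp2 (1.46 to 1.69). Mrc2 had a ratio of 1.72 with c-JunDN (1.42 to 2.1) and 1.5 with Jdp2 (1.22 to 1.84). Serpini1 had a ratio of 1.48 with c-JunDN (1.03 to 2.16) and Thbd one of 0.697 with Jdp2 (0.491 to 0.983).

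**Figure D4:**
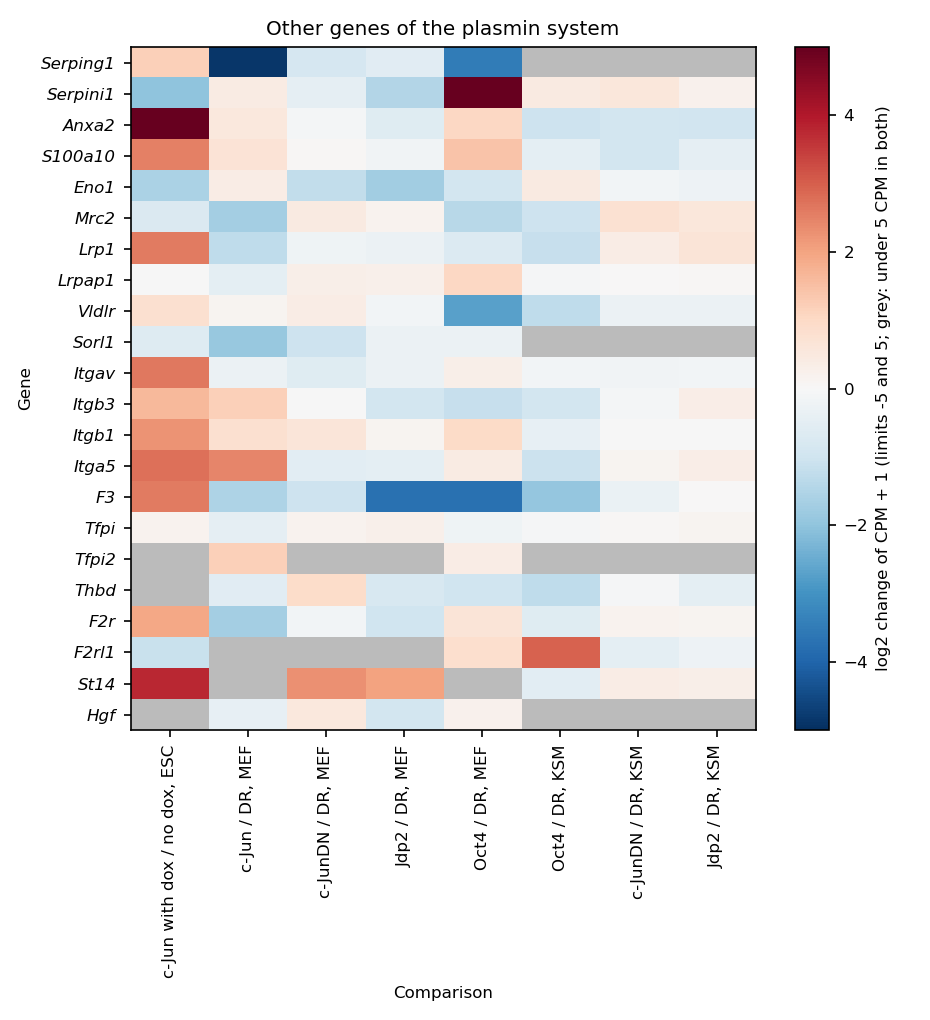
Log2 change of CPM plus 1 for the other plasmin-system genes measured in at least 1 of 8 comparisons, with genes as rows and comparisons as columns. Red is higher and blue lower than the matched control, and grey marks genes under 5 CPM in both libraries. Serping1 is lowest in MEF with c-Jun and F3 in MEF with Jdp2 and Oct4.

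Other serpin genes came from a list of 17, of which 16 were found. In ESC with dox, 4 of 5 measured rose and none fell, beside 21.3% and 19.7% of all genes (median 3.45, beside -0.09). They included Serpinb9b, a clade B gene (19.2-fold, 7.29 to 71.9), and Serpinh1, a collagen chaperone gene (5.26-fold, 4.64 to 5.97). Serpinf1, the gene of a secreted antiangiogenic serpin, had a ratio of 76.5 (25.9 to 373), with 310 counts with dox against 3 without. Serpinb9, with 0 counts without dox, rose at least 6.66-fold. Members low without dox were measured only where they were high with dox. With WT ESC as control, 4 of 6 measured were higher and 1 lower, beside 14.6% and 23.1% of all genes. The median was 1.61, beside -0.27. WT ESC held 5.74 CPM of Serpinb9b, 173 CPM of Serpinh1, 17.1 CPM of Serpinf1 and 3.99 CPM of Serpinb9. The levels with dox were 38.1, 740, 114 and 9.9 CPM.

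In MEF with c-Jun, 2 of 9 other serpins rose and 2 fell, beside 8.21% and 9.7% of all genes (median 0.00, beside 0.02). Serpinb1a, a clade B gene, rose 2.97-fold (2.07 to 4.35) and Serpinb9b 2.28-fold (1.6 to 3.3). Both rises were far below that of Serpinb2 in the same library. Serpina3g fell 8.82-fold (5.61 to 14.6) and Serpina3n 3.61-fold (2.3 to 5.86). Serpina3n also fell with c-JunDN (6.21-fold, 3.72 to 10.9), Jdp2 (13-fold, 6.05 to 33.1) and Oct4 (3.8-fold, 2.4 to 6.22) against the shared DR library. With c-JunDN 3 of 9 fell and none rose, beside 2.86% and 3.26% of all genes (median -0.37, beside -0.01). With Jdp2 4 of 9 fell and none rose, beside 6.42% and 5.95% of all genes (median -0.47, beside 0.00). The other falls with c-JunDN were Serpinb1a (3.75-fold, 1.97 to 7.63) and Serpina3g (3.1-fold, 2.36 to 4.11), while Serpinb9b had a ratio of 2.04 (1.44 to 2.93) and was just under the threshold. The other falls with Jdp2 were Serpinb1a (4.95-fold, 2.29 to 12.2), Serpinb9b (2.84-fold, 1.58 to 5.36) and Serpinf1 (2.61-fold, 2.36 to 2.89).

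With Oct4 in MEF, 4 of 10 other serpins rose and 3 fell, beside 11.6% and 10.3% of all genes (median 0.13, beside 0.01). Serpinb8 was 23.7-fold higher (11.8 to 55.8), Serpinb9b 5.2-fold higher (3.79 to 7.28) and Serpinf1 4.16-fold lower (3.68 to 4.71). In KSM cells with Oct4, 1 of 6 fell and none rose, beside 6.8% and 4.74% of all genes (median -0.62, beside 0.07). The fall was that of Serpinf1 (3.16-fold, 2.15 to 4.72). The ratios of Serpinb8 (0.484, 0.305 to 0.759), Serpinb9b (0.524, 0.328 to 0.828) and Serpinb1a (0.755, 0.399 to 1.43) did not pass the threshold. With c-JunDN, 1 of 7 fell and none rose, beside 1.75% and 1.69% of all genes (median 0.07, beside 0.02). The fall was that of Serpinb8 (2.75-fold, 1.66 to 4.7). Serpina3n had a ratio of 1.42 (0.616 to 3.48), Serpinf1 of 1.33 (1.02 to 1.75) and Serpinb9b of 1.3 (0.896 to 1.9). With Jdp2 none of 6 was called, beside 4.48% of all genes (median 0.15, beside -0.02). The ratios were 1.41 for Serpinb8 (0.988 to 2.04) and 1.22 for Serpinb6a (1.04 to 1.43). They were 1.11 for Serpinb9b (0.75 to 1.66) and 1.11 for Serpinf1 (0.839 to 1.48). Clade B genes are close relatives and lie in clusters, so the authors' counting could have split reads between them.

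The genes whose pattern was most like each member were ranked by Pearson's r of log2 CPM plus 1 over the 12 libraries that share an annotation, among 11278 genes. The libraries share their cell type and control structure, so these values are descriptions. For Plau they were Mapkapk2 (0.96), Sim2 (0.95) and Efha1 (0.95), and for Plat they were Lyst (0.96), Angptl2 (0.96) and Fbln2 (0.95). For Plaur they were Lgals3 (0.91), Arhgdia (0.88) and Osbpl3 (0.88), and for Serpinb2 they were Il33 (0.91), Cd1d1 (0.89) and Sprr1a (0.88). Serpinb2 stood at 404 CPM in MEF with c-Jun and at most 1.86 CPM elsewhere, so its r values rest largely on that library. For Serpine2 they were App (0.98), Tmem176b (0.98) and Pgcp (0.98). Among the members themselves, r was highest for Plau with Serpine2 (0.83) and Plat with Serpine2 (0.74). It was 0.33 for Plau with its receptor gene Plaur.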

How the data were processed

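Per the submitters' processing notes, RNA reads were quantified by RSEM 1.1.21 on mm9. The values are the authors' RSEM expected counts per gene, rounded here, and the authors' deposited fraction of transcripts per gene, which sums to 1 and was scaled to TPM. The MEF Oct4 library has expected counts and TPM from the authors on 27729 Ensembl genes, per the file headers. It was joined by symbol and synonym to 19653 shared names, which hold 96.81% of its 1896522 counts. Its FPKM was not used. Both peak lists were left out, since no mm9 annotation was used here.

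TMM factors (edgeR 4.0.16, R 4.3.3) were computed over all 13 RNA libraries on the shared names. Each change is log2 of the ratio of 2 levels after adding a pseudocount of 1 CPM, a step tested on simulated data, and it understates changes of low genes. Where one library had 0 counts, the fold is a bound against 3 counts, and none is printed where neither library exceeds 3. Alternatives were DESeq2 1.42.0 size factors, total counts, pseudocounts of 0.5 and 5, no filter, TPM, calls whose interval excludes no change, WT controls and joining by exact symbol. Those for the WT, cell-type and direct comparisons were added after seeing the data. Promoters are from RefSeq (GRCm38.p6).

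The members and lists were chosen with earlier results of these data known. The other plasmin-system and serpin genes named are the 4 measured genes with the largest change per comparison and list. The falls of Serpini1, Eno1 and F2rl1 in ESC, and of F3 in MEF with c-Jun, were named after their values were seen. Genes most like a member are the 3 with the highest r.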

Additional observations from a re-analysis of the deposited data

Results flagged for a closer look

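Each result here is a member that moved in opposite directions with the same factor in 2 cell types, with both counting intervals excluding no change. With 1 library per group the difference was not tested, and it is given as the first log2 change minus the second. With c-Jun, Plau changed by 4.07 in ESC and -0.70 in MEF (difference 4.77), and Serpine2 by 1.99 in ESC and -0.75 in MEF (2.74). Plau had 0 counts without dox, so its change in ESC depends on the pseudocount. The Serpine2 change in ESC was 0.01 against WT ESC. With Oct4, Plaur changed by 0.97 in MEF and -0.82 in KSM cells (1.79), and Serpine2 by 0.70 and -1.20 (1.90). Against WT MEF the Plaur change with Oct4 was -0.15, so its opposite direction is seen with the DR control and not with WT MEF. With c-JunDN, Plau changed by -1.78 in MEF and 0.75 in KSM cells (-2.53), and Serpine2 by 0.61 and -0.65 (1.26). With Jdp2, Plat changed by -3.19 in MEF and 0.90 in KSM cells (-4.09), where MEF with DR held 203 CPM and KSM cells with DR 15.7 CPM. Serpine2 changed by 1.00 in MEF and -0.83 in KSM cells with Jdp2 (1.82).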

How the results depend on the processing

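Of the members' called changes, 1 turned round among the alternatives run: Plat in ESC with dox changed by -0.30 against WT ESC. No paired analysis was possible because each group has 1 library. With WT ESC as control, 2 members were called in ESC with dox. With WT MEF as control, 4 members were called with c-Jun, 4 with Jdp2 and 3 with Oct4, and 2447 genes with c-JunDN and 2984 with Jdp2, against 684 and 1389 with DR. Plaur with Oct4 in MEF passed 2-fold on total counts and on TPM, so that 2 members were called, and without a filter on low values Serpinb2, with 0 counts against 3, was also called there (2 members). Plaur with c-JunDN in KSM cells no longer passed with a pseudocount of 5 or on TPM (0 members in each). Serpine2 with Jdp2 in MEF passed with DESeq2 size factors (1.01), total counts (1.03) and TPM (1.07). With a pseudocount of 5, 347 genes were called with c-JunDN in MEF, and 776 (Oct4), 154 (c-JunDN) and 181 (Jdp2) in KSM cells. Without the filter these were 1257 with c-JunDN and 2241 with Jdp2 in MEF, and 1922 (Oct4), 848 (c-JunDN) and 1023 (Jdp2) in KSM cells. Between DR and WT MEF, a pseudocount of 5 gave 1496 genes and 1 member, and total counts gave 1 member. Between c-JunDN and WT MEF, total counts gave 4 members. The median of all genes moved by 0.38 on TPM and 0.15 on total counts in the ESC comparison with dox, by 0.17 on TPM with Oct4 in MEF, and by 0.39 on total counts between DR and WT MEF. Calls whose interval excludes no change left every count of members as it was. Depth limits Serpinb2 outside MEF with c-Jun and Plaur in MEF with Jdp2. The causes of these changes were not tested.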
